A study of Homo sapiens with 15 samples.

Results

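The comparison set FL-Fc-DM1 against continued cytarabine in Molm-13 cells that had all been exposed to cytarabine at 0.5 µM. Its members were chosen by their sample titles, which name the dose and the agent, and they are 6 of the 15 poly(A) RNA sequencing libraries of the study, 3 in each group. Molm-13, a human monocytic line of acute myeloid leukemia, is wild type in the genotype label and carries an internal tandem duplication of FLT3, which encodes a receptor tyrosine kinase of early blood cells. The cytarabine group was kept in cytarabine at 0.5 µM for 4 days. The FL-Fc-DM1 group had the same dose for 3 days, after which cytarabine was taken away and the cells spent 24 hours in FL-Fc-DM1 at 1 nM. Every difference below therefore holds both the arrival of FL-Fc-DM1 and the removal of cytarabine, which cannot be told apart here, since no group had cytarabine withdrawn without FL-Fc-DM1. Of the remaining libraries, 3 are controls grown for 4 days with neither agent, and 6 form the same pair of groups at 1 µM cytarabine, which serve for a test of the difference between doses. In the treatment text the FL-Fc-DM1 groups are called THP-1, a different monocytic leukemia line, while every title and cell line entry says Molm-13.

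Cytarabine is a nucleoside analog that is phosphorylated in cells and blocks DNA synthesis once built into DNA. No label explains the name FL-Fc-DM1. FL commonly stands for FLT3 ligand and Fc for the constant part of an antibody, and DM1 (mertansine) is a maytansinoid that binds tubulin and stops microtubule assembly, so that cells arrest in mitosis. FLT3 with an internal tandem duplication signals without ligand and is known to feed STAT5, the RAS-MAPK pathway and PI3K-AKT, the last of which keeps FOXO transcription factors out of the nucleus.

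Levels are CPM, counts scaled to library size with TMM factors, given per library or as mean ± SD (n = 3), and log2 fold changes, always FL-Fc-DM1 minus cytarabine, are given ± SE. Total counts were 13.02 to 13.44 M in the cytarabine libraries and 12.08 to 14.3 M in the FL-Fc-DM1 libraries. Of 12 markers of a monocytic leukemia line 11 had at least 10 CPM, with the granule enzyme gene MPO below that, and markers of red cells and B cells, the platelet genes PF4 and PPBP and the epithelial genes EPCAM and KRT19 were near or at 0. No label says whether a group's 3 libraries are separate cultures, so p-values measure only the spread between these libraries, which may be technical. In a bulk sample, fewer cells of a type and less RNA per cell cannot be told apart. Members of close gene families (tubulins, HLA, metallothioneins, histones) share sequence, and the counting of shared reads is not given, so single members of them are uncertain.

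A large share of genes differed between the groups, mostly by less than 2-fold. Of 12355 genes tested, 5528 (44.7%) passed a Benjamini-Hochberg adjusted p of 0.05 in edgeR's quasi-likelihood test. Higher calls numbered 2717 (22.0%) and lower calls 2811 (22.8%), and the median over all genes tested was -0.02 on the log2 scale. At least 2-fold changes were called in 392 genes (3.17%), of which 84 were higher (0.680%) and 308 lower (2.49%), and 31 genes passed a test against a change of 2-fold itself (edgeR glmTreat). The 3 values of each group did not overlap in 7166 genes (58.0%). These shares are the background against which the counts of every gene group below are read.

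**Figure D1:**
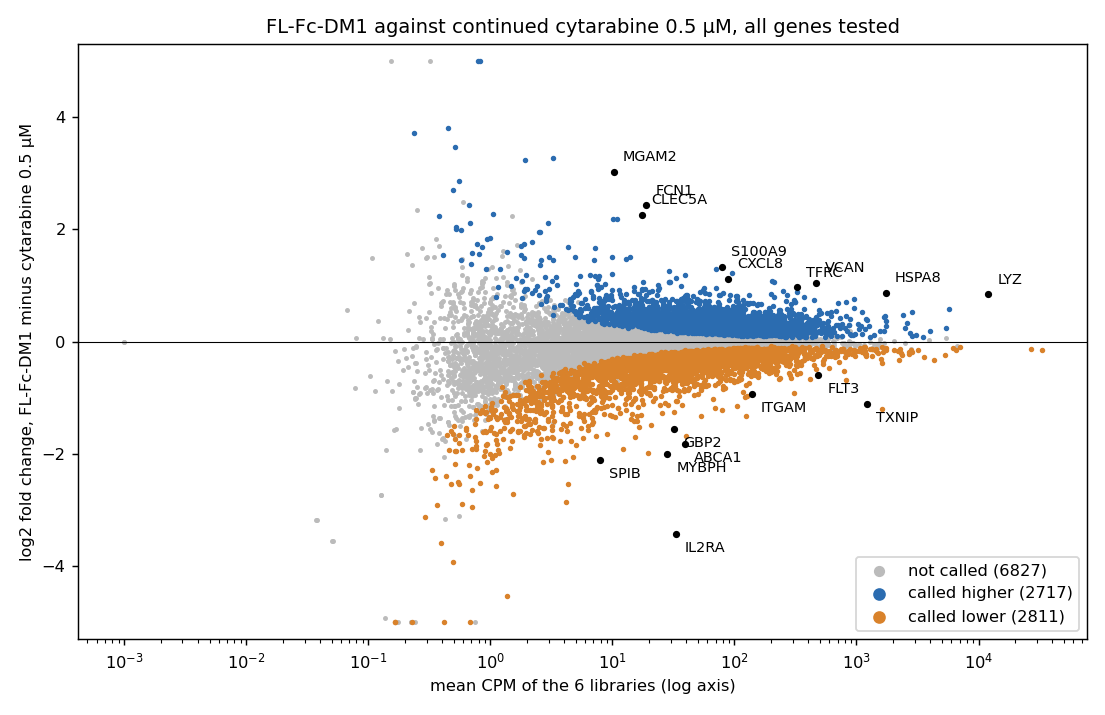
Log2 fold change against mean CPM (log axis) for the 12355 genes tested, 14 of them beyond ±5 and drawn at that edge, all with low counts. Higher and lower calls are about as frequent, most of them lie close to 0, and IL2RA stands lowest among genes above 10 CPM.

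The largest rises among genes with at least 10 CPM in a group included FCN1, CLEC5A and S100A9 of monocytes and the metallothioneins MT1G and MT2A. MGAM2, a relative of the starch-digesting enzyme maltase-glucoamylase, had 2.67, 2.15 and 1.91 CPM with cytarabine and 18.6, 17.5 and 18.9 CPM with FL-Fc-DM1. FCN1, a ficolin that monocytes secrete to bind microbial sugars, had 5.56, 6.54 and 5.801 against 30.4, 31.2 and 34.4 CPM. CLEC5A, a lectin receptor of myeloid cells, had 5.93, 6.15 and 6.11 against 27.8, 28.4 and 30.6 CPM. The log2 changes of these 3 genes were 3.02 ± 0.17, 2.42 ± 0.11 and 2.26 ± 0.14 (edgeR adjusted p = 2.78e-13, 8.17e-15 and 1.89e-12). The protease inhibitor gene A2M rose by 2.18 ± 0.17 and MT1G, a metallothionein that binds zinc and copper, by 2.18 ± 0.17. HLA-DPA1, RIPOR2, IL1B (the cytokine interleukin-1 beta), MT2A, S100A9 (a calcium-binding protein of monocytes and neutrophils) and BEX1 rose by 1.28 to 1.67 on the log2 scale. PDXP, a phosphatase that also acts on cofilin, rose 2.83-fold, and its FL-Fc-DM1 replicate 1, at 19.6 CPM, lay above the other two at 11.6 and 12.4 CPM.

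The largest fall of all such genes was in IL2RA, which encodes the high-affinity alpha subunit of the receptor for interleukin-2. Its cytarabine libraries had 62.4, 61.2 and 57.3 CPM and its FL-Fc-DM1 libraries 4.597, 6.82 and 5.404 CPM. The log2 change was -3.43 ± 0.11 (edgeR adjusted p = 2.05e-18), with 3.91 ± 0.444 CPM in the controls. SPIB, an ETS transcription factor of lymphoid and dendritic cells, went from 12.8 ± 0.492 to 2.96 ± 0.265 CPM, and CD80, a ligand that costimulates T cells, from 19.2 ± 1.12 to 5.098 ± 0.412 CPM. ABCA1, which exports cholesterol, had 61.9, 58.7 and 63.8 CPM in the cytarabine libraries and 18.9, 16.5 and 16.9 CPM in the FL-Fc-DM1 libraries, log2 -1.82 ± 0.093. MYBPH, PPFIA4, ZNF300, the guidance cue gene SEMA3A, the interferon-induced GTPase genes GBP4 and GBP2, the transglutaminase gene TGM2 and the collagen gene COL24A1 had log2 changes of -1.995 to -1.48. Of these 24 largest rises and falls, 12 overlap another gene in RefSeq, IL2RA and ABCA1 among them, and with no statement of strand their reads cannot be told from those of the partner.

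FLT3 itself was lower with FL-Fc-DM1. FLT3 mRNA (ENSG00000122025) stood at 591, 576 and 594 CPM in the cytarabine libraries and at 392, 384 and 383 CPM in the FL-Fc-DM1 libraries. The spread within each group was small beside the gap between them, at 1.52-fold lower or log2 -0.60 ± 0.032 (edgeR adjusted p = 8.002e-14). Controls had 395 ± 8.56 CPM. Per length, in the authors' length-scaled TPM, FLT3 was the highest of the receptors tested, at 279 ± 8.01 TPM with cytarabine and 181 ± 4.59 TPM with FL-Fc-DM1. CSF3R, the receptor of granulocyte colony-stimulating factor, followed at 156 ± 6.36 and 128 ± 3.78 TPM. Of 17 growth factor receptors tested, 2 were higher and 7 lower (median log2 -0.07, and -0.14 without cytarabine replicate 2). AXL, a receptor kinase for GAS6, fell from 51.5 ± 1.299 to 33.9 ± 4.99 CPM, its FL-Fc-DM1 replicate 1 being the lowest at 28.2 CPM. IL6R, the interleukin-6 receptor, rose from 141 ± 6.45 to 182 ± 3.39 CPM and was the only higher call of this list without cytarabine replicate 1, cytarabine replicate 2 or FL-Fc-DM1 replicate 3.

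Genes known as STAT5 targets moved both ways. Of 18 tested, 3 were higher and 7 lower (median -0.13, and -0.07 without FL-Fc-DM1 replicate 3). CISH, a feedback inhibitor of cytokine receptors, had 70.002, 64.2 and 69.9 CPM in the cytarabine libraries and 37.9, 39.3 and 34.9 CPM in the FL-Fc-DM1 libraries. Its groups did not overlap, with a log2 change of -0.87 ± 0.073 and a control level of 61.1 ± 3.204 CPM. PIM1, a serine/threonine kinase that promotes survival, fell from 345 ± 4.001 to 228 ± 3.995 CPM (log2 -0.60 ± 0.035). IL2RA, described above, also stands in this list, and CCND3, cyclin D3, went the other way, from 119 ± 2.65 to 163 ± 3.81 CPM. ID1, an inhibitor of differentiation factors named after its values were seen, had the largest rise of the list at log2 1.68 ± 0.51, from a low level of 0.402 ± 0.285 to 1.32 ± 0.0922 CPM. SOCS2, another feedback inhibitor, also named after its values were seen, fell from 65.7 ± 2.68 to 42.4 ± 1.38 CPM.

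The promoter of CISH, a textbook STAT5 target that fell with PIM1 and IL2RA, is shown because promoters were picked among called members holding the letters searched. It is given as the 250 bases before the RefSeq gene start (chr3:50611775-50612024, minus strand, GRCh38.p14), with capitals on the matches to TTCNNNGAA, the core of a STAT dimer site, which reads the same on both strands.
CISH: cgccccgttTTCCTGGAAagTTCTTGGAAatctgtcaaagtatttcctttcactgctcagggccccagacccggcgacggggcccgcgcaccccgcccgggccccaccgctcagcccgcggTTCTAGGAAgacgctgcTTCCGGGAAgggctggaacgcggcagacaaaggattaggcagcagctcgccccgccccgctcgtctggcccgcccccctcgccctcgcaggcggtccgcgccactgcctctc
It holds 4 such matches, the nearest beginning 112 bases before the start. Of the 14 STAT5 targets with a RefSeq promoter, 3 hold the letters (21.4%), against 6.57% of all 35116 promoters of this length, and of the 7 called ones CISH alone (1) holds them. A match is only a match of letters, here and for each promoter shown.

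**Figure D2:**
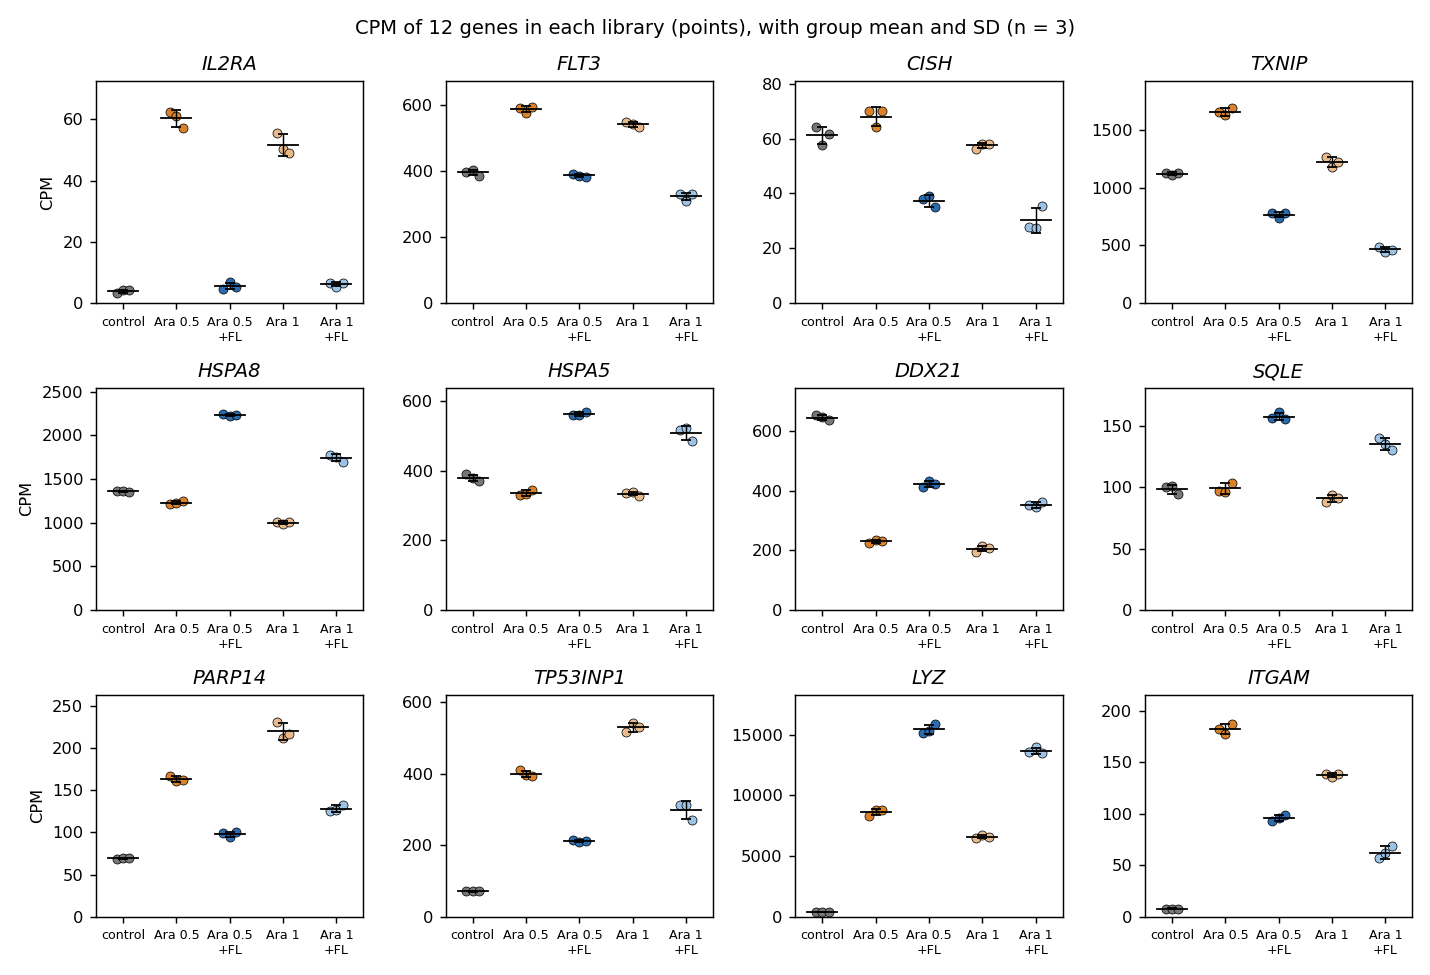
CPM of 12 genes in each library (points), with the mean (line) and SD (bars) of 3 libraries, for control, cytarabine (Ara) at 0.5 and 1 µM, and cytarabine followed by FL-Fc-DM1 (+FL). At 0.5 µM the cytarabine and FL-Fc-DM1 libraries do not overlap in any of the 12 genes, which were picked from the called named genes. The same holds for 58.0% of all genes tested.

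Genes that respond to or restrain the MAPK pathway were higher more often than lower, 12 against 5 of 34 (median 0.18, and 0.31 without cytarabine replicate 2), and the lower count was 2 or 3 without cytarabine replicate 1 or 3 or without any 1 FL-Fc-DM1 library. FOS, an immediate early transcription factor gene, had 36.3, 38.2 and 39.4 CPM with cytarabine and 73.7, 76.1 and 72.03 CPM with FL-Fc-DM1, log2 0.96 ± 0.067. KLF4 rose from 5.69 ± 0.898 to 11.6 ± 1.28 CPM and FOSL2 from 182 ± 2.01 to 227 ± 5.43 CPM. Not every gene of this list was higher. IER5 fell from 87.3 ± 2.17 to 66.5 ± 1.41 CPM, and DUSP6, a phosphatase of ERK named after its values were seen, had 24.8 ± 1.76 and 28.2 ± 2.12 CPM with no call (adjusted p = 0.165, edgeR).

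Genes activated by FOXO factors or acting on PI3K were lower in 10 of 25 cases and higher in 3 (median -0.18, and -0.03 without cytarabine replicate 3). TXNIP, which binds thioredoxin and limits glucose uptake, had 1652, 1624 and 1685 CPM in the cytarabine libraries and 781, 741 and 779 CPM in the FL-Fc-DM1 libraries. The FL-Fc-DM1 values lay below the 1121 ± 12.7 CPM of the controls, and the log2 change was -1.11 ± 0.034 (edgeR adjusted p = 1.61e-18). PIK3IP1, an inhibitor of PI3K, fell from 49.9 ± 1.698 to 27.7 ± 0.338 CPM and SESN1, a stress-induced inhibitor of mTORC1, from 192 ± 3.57 to 140.1 ± 2.33 CPM. IRS2, the adaptor of the insulin receptor, rose from 18.6 ± 1.504 to 27.4 ± 0.662 CPM.

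The abundant tubulin mRNAs TUBA1B, TUBB, TUBA1C and TUBB4B were higher with FL-Fc-DM1. Alpha- and beta-tubulin form the dimers of microtubules, and cells are known to degrade tubulin mRNA when free dimers are abundant. Of the 17 genes listed, 11 passed the filter on low counts, and among these 5 were higher and 1 lower (median 0.17). TUBA1C had 99.8, 86.5 and 89.4 CPM with cytarabine and 148, 148 and 138 CPM with FL-Fc-DM1, and TUBB4B had 48.4, 44.8 and 51.4 against 74.7, 75.8 and 74.4 CPM. Both were separated, with log2 changes of 0.65 ± 0.052 and 0.64 ± 0.077. The most abundant members changed less, TUBA1B from 456 ± 12.1 to 513 ± 13.01 CPM (log2 0.17 ± 0.032) and TUBB from 553 ± 11.002 to 607 ± 13.7 CPM (log2 0.13 ± 0.032). TUBA4A rose from 17.8 ± 0.8502 to 24.7 ± 2.74 CPM. TUBA1A had 49.2 ± 1.86 and 47.5 ± 1.72 CPM and TUBB6 had 22.2 ± 2.35 and 25.5 ± 2.42 CPM, neither called, though TUBB6 was called without cytarabine replicate 2 or FL-Fc-DM1 replicate 3. TUBB4A, the lower call, had at most 2.06 CPM in any of the 6 libraries and lost its call without cytarabine replicate 3 (log2 -1.84 ± 0.56). TUBA8, TUBB1 and TUBB3 were low and were not called. Summed over the 11 tested genes, the authors' TPM was 1207 ± 28.6 with cytarabine, 1396 ± 49.5 with FL-Fc-DM1 and 1535 ± 17.8 in the controls.

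**Figure D3:**
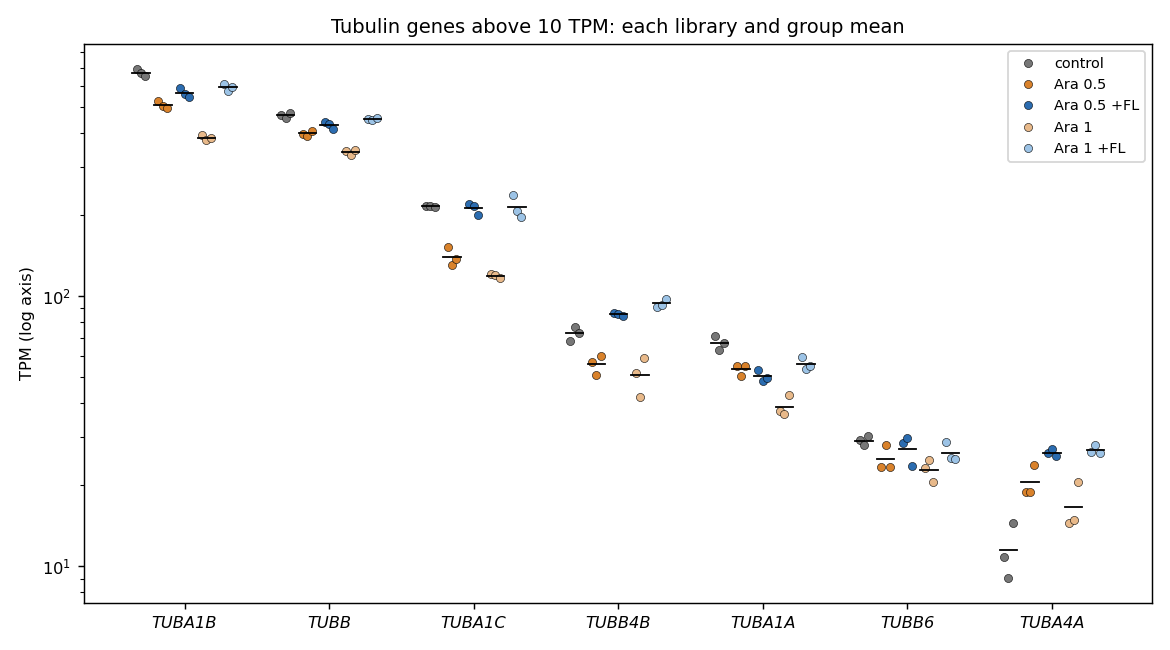
TPM (log axis) of the 7 tubulin genes above 10 TPM in each library, with group means as lines. TUBA1B and TUBB are the most abundant, TUBA1C and TUBB4B have FL-Fc-DM1 values well above cytarabine at both pretreatment doses, and TUBA1A does so at 1 µM only (difference between doses -0.58 ± 0.091, edgeR adjusted p = 0.000328).

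Of the 22 genes that fold tubulin, 11 were higher and 4 lower (median 0.19), the lower count being 2 without cytarabine replicate 2, FL-Fc-DM1 replicate 1 or FL-Fc-DM1 replicate 2. Subunits of the chaperonin CCT, which folds both tubulin and actin, did not all move alike. CCT5 rose from 191 ± 0.6001 to 282 ± 5.199 CPM, CCT6A from 286 ± 2.74 to 385 ± 4.04 CPM and CCT7 by 0.33 ± 0.034, and CCT8 fell from 1059 ± 13.7 to 889 ± 15.6 CPM. Among 4 gamma-, delta- and epsilon-tubulin genes TUBG2 was lower, from 7.61 ± 1.16 to 4.39 ± 0.49999 CPM. Regulators of microtubules were higher in 7 (23.3%, near the share of all genes) and lower in 5 of 30 cases (median -0.02). Their lower count was 3 when any cytarabine library was left out, or without FL-Fc-DM1 replicate 2. The plus-end protein gene MAPRE1 rose by 0.37 ± 0.041, the microtubule polymerase gene CKAP5 by 0.29 ± 0.051 and the dynein heavy chain gene DYNC1H1 by 0.18 ± 0.034, and CLASP1, which stabilizes plus ends, fell (log2 -0.31 ± 0.045).

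Genes of mitosis were modestly higher, with 18 of 41 called higher and 1 lower (median 0.16, and 0.24 without cytarabine replicate 3). Their higher count was 12 without cytarabine replicate 1 and 15 without FL-Fc-DM1 replicate 1 or 3. CDC20, an activator of the anaphase-promoting complex, had 11.1, 11.4 and 12.3 CPM with cytarabine and 25.2, 26.7 and 21.2 CPM with FL-Fc-DM1. The FL-Fc-DM1 values were above all cytarabine values yet below the 58.2 ± 3.798 CPM of the controls, with a log2 change of 1.06 ± 0.101. CCNB1, cyclin B1, rose from 26.4 ± 0.688 to 42.3 ± 0.6504 CPM (control 85.5 ± 1.31), and MKI67, the proliferation marker Ki-67, from 70.1 ± 4.197 to 96.1 ± 5.19 CPM (control 381 ± 12.1). SPC24, the lower call, overlapped between groups at 4.15, 3.31 and 4.58 against 2.01, 3.41 and 2.13 CPM and lost its call without cytarabine replicate 1 or 3 or FL-Fc-DM1 replicate 1 or 3. Of 27 kinesins 6 were higher (22.2%, near the 22.0% of all genes) and 2 lower (median 0.07). KIF20A, a kinesin of cytokinesis, rose from 8.23 ± 0.386 to 14.7 ± 0.769 CPM and KIF18B, which shortens microtubules in mitosis, from 3.46 ± 0.4101 to 5.61 ± 0.665 CPM. KIF5B, a transport kinesin, rose by 0.13 ± 0.036 and KIF13B fell (log2 -0.32 ± 0.0598).

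DNA replication genes showed little change, with 7 of 39 higher, 3 lower and a median of 0.02. POLD2, a subunit of DNA polymerase delta, rose from 35.99 ± 1.44 to 45.95 ± 2.33 CPM, the helicase subunit gene MCM4 by 0.14 ± 0.037 and the licensing inhibitor gene GMNN by 0.32 ± 0.0898. PCNA, the sliding clamp, fell from 383 ± 9.65 to 343 ± 6.26 CPM. Without cytarabine replicate 1 or 2 the higher count was 4. Of 25 genes of the G1 phase, cyclin-dependent kinases and E2F, 6 were higher and 7 lower (24% and 28%, median -0.05). These shares lie near those of all genes. CDKN1B, the inhibitor p27, had 118, 129 and 117 CPM in the cytarabine libraries and 71.5, 72.4 and 80.6 CPM in the FL-Fc-DM1 libraries, log2 -0.69 ± 0.058. Cyclin D2 (CCND2) fell (log2 -0.52 ± 0.063) and the inhibitor gene CDKN2C (log2 -0.29 ± 0.057), and TFDP1, a partner of E2F, rose by 0.38 ± 0.039.

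Recombination and checkpoint genes were lower in 10 of 27 cases and higher in 1 (median -0.17), a lower count that was 4 without cytarabine replicate 1, 6 without cytarabine replicate 3 or FL-Fc-DM1 replicate 1, and 5 without FL-Fc-DM1 replicate 2. ATM, a kinase activated by double-strand breaks, fell from 434 ± 13.3 to 353 ± 11.99 CPM. CHEK1, the checkpoint kinase that ATR activates, fell from 17.4 ± 0.923 to 12.8 ± 1.004 CPM and the recombination gene RAD54B from 17.1 ± 1.92 to 11.99 ± 2.87 CPM. ATR, the kinase activated by stalled forks, was the higher call, from 64.1 ± 0.281 to 75.9 ± 0.285 CPM.

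Most p53 target genes were lower with FL-Fc-DM1, 21 of 33, and 3 were higher (median -0.27). TP53INP1, a nuclear protein induced by p53, had 409.6, 396 and 393 CPM in the cytarabine libraries and 215, 209 and 212 CPM in the FL-Fc-DM1 libraries. The groups were well apart, with log2 -0.92 ± 0.042 (edgeR adjusted p = 4.68e-15), and both lay above the 71.7 ± 1.15 CPM of the controls. SESN1, given above, and CCNG1, cyclin G1, were lower too, CCNG1 from 293 ± 6.37 to 236 ± 6.53 CPM. TRIAP1, an inhibitor of apoptosis, rose from 60.3 ± 1.08 to 68.3 ± 3.097 CPM, and without FL-Fc-DM1 replicate 3 it was not called and the list had 1 higher call. Named after their values were seen, MDM2, the ubiquitin ligase of p53, fell from 916 ± 7.48 to 788 ± 23.9 CPM, and the cell cycle inhibitor CDKN1A had 948 ± 12.7 and 933 ± 9.28 CPM with no call (adjusted p = 0.544, edgeR), against 284 CPM in the controls.

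The BCL2 family, which sets the threshold of mitochondrial apoptosis, was listed together with BIRC2, which is not a member of it. This list had 3 higher and 9 lower calls among 21 genes (median -0.15). BMF, a death-promoting member that responds to cytoskeletal stress, had 170.2, 169.6 and 167 CPM with cytarabine and 87.3, 83.8 and 87.9 CPM with FL-Fc-DM1. The groups did not overlap (log2 -0.97 ± 0.045), and the controls had 78.9 ± 1.07 CPM. BCL2L11, which encodes the death-promoting protein BIM, fell from 137 ± 0.559 to 104 ± 3.301 CPM and the inhibitor of apoptosis gene BIRC2 from 94.1 ± 3.22 to 78.7 ± 2.08 CPM. BID, which links death receptors to mitochondria, rose from 35.8 ± 0.3199 to 47.4 ± 2.1001 CPM. The higher count was 1 without cytarabine replicate 3.

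Every tested gene of the list of MYC targets and ribosome biogenesis was higher, 33 of 33 against the 22.0% of all genes, with a median log2 change of 0.55. The list was chosen with earlier results of these data known. In the deposited annotation, the ribosome biogenesis pathway had 52 of 72 genes higher (72.2%) and 4 lower, with a median of 0.30. DDX21, a helicase of ribosomal RNA processing, had 224, 234 and 231 CPM in the cytarabine libraries and 414, 433 and 423 CPM in the FL-Fc-DM1 libraries, with 645 ± 8.99 CPM in the controls. The log2 change was 0.88 ± 0.036 (edgeR adjusted p = 4.14e-16). TFRC, the transferrin receptor that takes up iron, rose from 219.8 ± 5.71 to 429 ± 6.76 CPM (log2 0.97 ± 0.034), and its controls had 182 ± 3.97 CPM. LDHA, lactate dehydrogenase A, had 268, 265 and 279 CPM against 469, 472 and 467 CPM (log2 0.79 ± 0.033). MYC itself, named after its values were seen, rose from 286.5 ± 12.0 to 353 ± 1.47 CPM (log2 0.30 ± 0.034) against 637 CPM in the controls. Ribosomal protein genes went the other way, with 42 of 77 lower and 1 higher (median -0.13). RPL7 fell (log2 -0.23 ± 0.024), RPL3 (log2 -0.27 ± 0.0296) and RPL12 (log2 -0.26 ± 0.031), RPS26 rose by 0.41 ± 0.049, and the share of all counts in these genes went from 9.91 ± 0.247% to 8.88 ± 0.17%. Without FL-Fc-DM1 replicate 1 the lower count was 27.

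The promoter of LDHA is shown because it stands in both the MYC and the glycolysis list and holds 2 matches to CACGTG, the E-box that MYC binds, which reads the same on both strands. The 250 bases before the start (chr11:18394313-18394562, plus strand, GRCh38.p14, RefSeq) carry the matches in capitals.
LDHA: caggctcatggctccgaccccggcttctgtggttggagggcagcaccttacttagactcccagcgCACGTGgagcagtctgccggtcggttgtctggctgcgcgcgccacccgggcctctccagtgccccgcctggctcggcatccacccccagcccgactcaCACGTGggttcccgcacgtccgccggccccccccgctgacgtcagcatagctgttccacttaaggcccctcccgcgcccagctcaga
Of 27 members with a promoter, 4 hold an E-box there (14.8%), against 6.34% of all promoters.

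Genes of the ATF4 stress response were mixed, 9 higher and 8 lower of 34 (median 0.03), shares near those of all genes. SLC7A5, the light chain of a leucine transporter, had 58.001, 57.4 and 56.1 CPM with cytarabine and 100.04, 109 and 105 CPM with FL-Fc-DM1. It stayed well below the 465 ± 6.53 CPM of the controls, with a log2 change of 0.87 ± 0.048. Its heavy chain SLC3A2 rose by 0.57 ± 0.051 and the arginine transporter gene SLC7A1 by 0.62 ± 0.0495, and the lipoprotein receptor gene VLDLR fell (log2 -0.69 ± 0.072).

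Chaperones of the cytosol and of the endoplasmic reticulum were higher with FL-Fc-DM1. Of 17 heat shock genes 12 were higher and 2 lower (median 0.41). HSPA8, the constitutive Hsp70, had 1218, 1222 and 1245 CPM in the cytarabine libraries and 2249, 2224 and 2234 CPM in the FL-Fc-DM1 libraries. The groups were far apart, and the controls lay between them at 1357 ± 9.91 CPM, with a log2 change of 0.86 ± 0.026 (edgeR adjusted p = 1.61e-18). HSP90AA1 rose from 705 ± 16.3 to 1193 ± 21.8 CPM and HSPH1, an exchange factor of Hsp70, from 176 ± 5.54 to 327 ± 3.76 CPM. DNAJB4, a cochaperone, fell from 31.5 ± 1.298 to 22.5 ± 0.411 CPM, and it was the sole lower call when any 1 of the 6 libraries was left out. Of 21 genes of the unfolded protein response 16 were higher and 2 lower (median 0.40). HSPA5, the Hsp70 of the endoplasmic reticulum, had 330.01, 333 and 346 CPM against 561, 561 and 569 CPM, log2 0.74 ± 0.034. HYOU1 and HSP90B1, 2 further chaperones of that compartment, rose from 75.7 ± 2.96 to 133 ± 3.97 and from 512 ± 14.3 to 734 ± 2.799 CPM. HERPUD1, which serves the degradation of misfolded proteins, fell from 85.8 ± 2.43 to 72.5 ± 1.47 CPM, and the lower count was 1 without cytarabine replicate 3, FL-Fc-DM1 replicate 1 or FL-Fc-DM1 replicate 2.

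The promoters of HSPA8, HSPA5 and HSP90B1 are shown because these are called chaperone genes that carry the elements known for each response. Each is the 250 bases before the RefSeq start in GRCh38.p14, HSPA8 at chr11:123062137-123062386, minus strand, HSPA5 at chr9:125241344-125241593, minus strand and HSP90B1 at chr12:103930160-103930409, plus strand. Capitals mark GAANNTTC, the core of the heat shock element, in HSPA8, and CCAAT followed by any 9 bases and CCACG, or its reverse complement, the endoplasmic reticulum stress element, in HSPA5 and HSP90B1.
HSPA8: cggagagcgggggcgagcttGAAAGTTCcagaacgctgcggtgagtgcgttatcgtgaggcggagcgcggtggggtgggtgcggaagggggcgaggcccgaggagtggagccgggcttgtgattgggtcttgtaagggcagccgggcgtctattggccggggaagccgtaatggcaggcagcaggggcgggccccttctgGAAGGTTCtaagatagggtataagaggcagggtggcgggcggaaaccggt
HSPA5: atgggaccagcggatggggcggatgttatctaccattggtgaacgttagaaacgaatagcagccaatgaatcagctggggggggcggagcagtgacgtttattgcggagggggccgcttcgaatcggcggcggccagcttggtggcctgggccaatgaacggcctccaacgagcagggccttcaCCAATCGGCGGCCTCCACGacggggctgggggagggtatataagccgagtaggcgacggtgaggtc
HSP90B1: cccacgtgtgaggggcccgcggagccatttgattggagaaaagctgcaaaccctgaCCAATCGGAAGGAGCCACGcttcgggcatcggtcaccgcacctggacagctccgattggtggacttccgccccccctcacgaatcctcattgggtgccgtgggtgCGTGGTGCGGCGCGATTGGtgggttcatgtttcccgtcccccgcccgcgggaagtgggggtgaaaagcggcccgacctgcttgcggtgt
HSPA8 holds 2 heat shock matches, HSPA5 holds 1 stress element and HSP90B1 holds 2, on opposite strands. Of 16 heat shock genes with a promoter 5 hold GAANNTTC (31.2%), against 5.78% of all promoters. All 5 were called, as were 14 of these 16 genes, so the call does not distinguish them. The stress element was found in 6 of 20 genes of the unfolded protein response (30%) and in 0.074% of all promoters, 26 in number. All 6 were called, as were 17 of these 20 genes, so the call does not set them apart.

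Genes of cholesterol synthesis and uptake were higher in 18 of 24 cases and lower in 1 (median 0.51). SQLE, the squalene epoxidase of cholesterol synthesis, had 97.3, 96.2 and 104 CPM with cytarabine and 156, 161 and 156 CPM with FL-Fc-DM1. The groups did not overlap, the log2 change was 0.67 ± 0.044, and the controls had 98.6 ± 3.68 CPM. STARD4, a sterol carrier, fell from 166 ± 0.617 to 109 ± 4.68 CPM. Genes linked to LXR, the oxysterol receptor, were lower in 7 of 12 cases and higher in 3 (median -0.23). Besides ABCA1, CYP27A1, a sterol hydroxylase that makes oxysterols, fell from 177 ± 6.11 to 133 ± 3.74 CPM and SREBF1, a lipogenic transcription factor gene, from 41.4 ± 0.605 to 28.01 ± 1.501 CPM. FASN, fatty acid synthase, rose from 85.4 ± 3.56 to 134 ± 9.93 CPM. Of 18 cholesterol genes with a promoter 1 holds TCACNCCAC, the sterol regulatory element (5.56%), against 0.883% of all promoters.

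Interferon-stimulated genes were lower, 28 of 39 against 22.8% of all genes, with none called higher and a median of -0.65. XAF1, an antagonist of inhibitors of apoptosis, had 87.3, 89.3 and 93.3 CPM in the cytarabine libraries and 43.8, 42.99 and 46.6 CPM in the FL-Fc-DM1 libraries. Its groups did not overlap, log2 -1.01 ± 0.049 (edgeR adjusted p = 1.496e-14), and its controls were higher than either, at 187 ± 4.28 CPM. In this XAF1 was not typical of the list. The median log2 difference from the controls over its 39 genes was 1.46 for cytarabine and 0.94 for FL-Fc-DM1. PARP14, a mono-ADP-ribosyltransferase, had 167, 161 and 163 CPM against 98.96, 94.6 and 100.3 CPM, log2 -0.74 ± 0.042. SAMD9L, an antiviral inhibitor of translation, fell from 87.2 ± 2.65 to 50.8 ± 1.699 CPM (control 18.8 ± 0.967).

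The promoters of PARP14 and of SAMD9, a close relative of SAMD9L named here only for its sequence, are shown with capitals on GAAA followed by any 2 bases and again GAAA, the core of the interferon-stimulated response element, searched on both strands. They are the 250 bases before the start in RefSeq (GRCh38.p14), PARP14 at chr3:122680589-122680838, plus strand and SAMD9 at chr7:93117980-93118229, minus strand.
PARP14: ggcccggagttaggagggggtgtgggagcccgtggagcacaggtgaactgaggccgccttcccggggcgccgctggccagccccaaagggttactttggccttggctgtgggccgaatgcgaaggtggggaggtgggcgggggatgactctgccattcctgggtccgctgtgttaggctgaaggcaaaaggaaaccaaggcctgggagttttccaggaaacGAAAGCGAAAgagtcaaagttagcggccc
SAMD9: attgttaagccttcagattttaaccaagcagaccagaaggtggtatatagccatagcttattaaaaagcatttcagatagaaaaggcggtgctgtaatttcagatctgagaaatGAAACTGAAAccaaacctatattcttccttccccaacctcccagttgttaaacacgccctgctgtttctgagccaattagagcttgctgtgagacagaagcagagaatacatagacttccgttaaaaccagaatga
Of 31 tested interferon-stimulated genes with a promoter, 18 hold the element (58.1%), against 3.02% of all promoters. Among the 22 of them that were called lower, 12 hold it.

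NF-kappaB targets and inflammatory cytokines were lower in 7 of 27 cases (25.9%, near the 22.8% of all genes) and higher in 4 (14.8%), with a median of -0.25. TNFAIP3, the ubiquitin-editing brake A20, fell from 66.9 ± 2.42 to 38.9 ± 2.15 CPM, TNFAIP2 from 136 ± 3.402 to 93.5 ± 3.27 CPM and the subunit gene REL from 129 ± 2.504 to 97.6 ± 3.98 CPM. CXCL8, the chemokine interleukin-8, had 55.3, 52.5 and 59.2 CPM with cytarabine and 121, 119 and 122 CPM with FL-Fc-DM1, log2 1.12 ± 0.068.

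Monocyte and macrophage genes were higher more often than lower, 23 against 7 of 43 (median 0.32). LYZ, lysozyme, had 8309, 8761 and 8801 CPM in the cytarabine libraries and 15093, 15322 and 15848 CPM in the FL-Fc-DM1 libraries, the highest level among the genes named here apart from MT-CO1. The groups were far apart, with log2 0.84 ± 0.027 (edgeR adjusted p = 4.38e-18) and 379 ± 12.4 CPM in the controls. VCAN, the proteoglycan versican of classical monocytes, had 312, 299 and 307 against 633, 627 and 632 CPM, log2 1.04 ± 0.035, and S100A9 40.7, 48.4 and 45.2 against 107, 110.02 and 119.7 CPM. ITGAM, the integrin chain CD11b, had 183, 178 and 187 CPM against 92.9, 95.6 and 99.2 CPM (log2 -0.93 ± 0.049), and ITGAX, the CD11c chain named after its values were seen, fell from 166 ± 3.89 to 108 ± 2.17 CPM. CSF1R, the receptor of macrophage colony-stimulating factor, also named after its values were seen, had 54.99 ± 2.99 and 56.3 ± 2.70 CPM with no call (adjusted p = 0.692, edgeR).

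Genes of MHC class II antigen presentation were higher in 7 of 11 cases and lower in 2 (median 0.41). HLA-DRA had 236, 235 and 238 CPM with cytarabine and 385, 388 and 385 CPM with FL-Fc-DM1, log2 0.71 ± 0.0399. The invariant chain gene CD74 rose from 783 ± 3.17 to 964 ± 26.6 CPM. Their transactivator CIITA went down instead, at 108, 99.2 and 98.3 CPM against 75.8, 75.8 and 66.7 CPM (log2 -0.49 ± 0.055), and was the sole lower call without cytarabine replicate 1 or 2 or FL-Fc-DM1 replicate 2 or 3. In MHC class I presentation 1 of 16 genes was higher and 6 were lower (median -0.05), HLA-E (log2 -0.31 ± 0.036) and the trimming peptidase gene ERAP2 (log2 -0.41 ± 0.046), and TAPBPL, a peptide editor, rose by 0.33 ± 0.092. The class I higher count was 2 without cytarabine replicate 2 or 3 and 3 without FL-Fc-DM1 replicate 2.

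Of 34 lysosomal genes 19 were higher and 1 lower (median 0.16). The broader lysosome pathway of the deposited annotation had 50 of 123 higher (40.7%) and 22 lower (17.9%), with a median of 0.08. PSAP, the precursor of saposins that help degrade sphingolipids, rose from 1447 ± 14.1 to 1979 ± 32.3 CPM, the acid lipase gene LIPA from 394 ± 12.4 to 537 ± 4.91 CPM and the membrane protein gene LAMP1 from 410.1 ± 11.7 to 526 ± 4.32 CPM. HEXA, a hexosaminidase, was called lower at an adjusted p of 0.0495 (edgeR, log2 -0.10 ± 0.042), and the call was lost when any 1 of the 6 libraries was left out. Of 10 genes of Fc receptors and uptake 6 were higher and none lower (median 0.15). FCGRT, the recycling Fc receptor, rose from 98.8 ± 1.47 to 147 ± 4.32 CPM, FCGR2B from 58.8 ± 0.748 to 82.5 ± 2.32 CPM and FCGR1A from 47.8 ± 0.683 to 62.9 ± 2.95 CPM.

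Granule genes were mixed, 5 higher and 2 lower of 12 tested (median 0.06, and 0.18 without FL-Fc-DM1 replicate 1). SRGN, the granule proteoglycan serglycin, rose from 4613 ± 193 to 6865 ± 274 CPM, PRTN3, proteinase 3, by 0.24 ± 0.048 and RNASE3 by 0.48 ± 0.098, and AZU1, azurocidin, fell from 519 ± 7.304 to 434 ± 7.999 CPM. Among 20 myeloid transcription factors 5 were higher and 4 lower (median 0.02), shares near those of all genes. Their lower count was 2 without cytarabine replicate 1 or 3. IRF8, a factor of monocyte and dendritic cell fate, rose from 232 ± 5.82 to 330.1 ± 3.39 CPM. Genes of stem cells and of KMT2A fusions, which bind near HOXA9 and MEIS1 and recruit DOT1L, were lower in 10 of 21 cases and higher in 2 (median -0.22). MEIS1 had 51.9, 54.7 and 53.96 CPM with cytarabine and 37.4, 37.1 and 35.8 CPM with FL-Fc-DM1, log2 -0.54 ± 0.066. HOXA9 fell from 112 ± 0.607 to 91.01 ± 1.7995 CPM, the chromatin gene JMJD1C (log2 -0.34 ± 0.038) and ZFP36L2, which destabilizes mRNA (log2 -0.25 ± 0.033), and DOT1L rose by 0.23 ± 0.054. Only 1 of this list was higher without cytarabine replicate 1.

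Metallothioneins and targets of NRF2, the factor of oxidative stress, were higher in 14 of 21 cases and lower in 1 (median 0.24). MT2A had 3.33, 4.23 and 3.89 CPM with cytarabine and 10.2, 10.98 and 10.2 CPM with FL-Fc-DM1 (log2 1.45 ± 0.16), near the 9.51 ± 1.52 CPM of the controls. HMOX1, heme oxygenase 1, rose from 29.6 ± 0.585 to 51.02 ± 1.65 CPM and the ferritin heavy chain gene FTH1 from 2288 ± 36.7 to 2707 ± 25.4 CPM. ME1, malic enzyme, fell (log2 -0.38 ± 0.11), a call lost without cytarabine replicate 1 or FL-Fc-DM1 replicate 2. The promoter of MT2A, which with MT1G is among the largest rises, was likewise picked among called members holding the letters searched. It is the 250 bases before the RefSeq start (chr16:56608334-56608583, plus strand, GRCh38.p14), with capitals on TGCNCNC or its reverse complement, the core of the metal response element.
MT2A: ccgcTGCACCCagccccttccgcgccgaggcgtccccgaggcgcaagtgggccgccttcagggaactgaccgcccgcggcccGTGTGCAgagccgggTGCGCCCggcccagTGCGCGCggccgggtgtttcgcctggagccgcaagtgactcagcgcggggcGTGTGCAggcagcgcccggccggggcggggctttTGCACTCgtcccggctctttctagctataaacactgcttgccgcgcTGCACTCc
It holds 7 matches over both strands. The letters are common, in 49.1% of all promoters against 57.1% (8 of 14) of this list.

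Actin and other genes of the serum response factor were higher in 17 of 27 cases and lower in 3 (median 0.20). ACTB, beta-actin, had 2289.7, 2323 and 2362 CPM with cytarabine and 3349.9, 3332 and 3343 CPM with FL-Fc-DM1, log2 0.52 ± 0.0296. Tropomyosin 4 (TPM4) rose by 0.49 ± 0.031 and cofilin 1 (CFL1), which severs actin filaments, by 0.44 ± 0.038, and the GTPase gene RHOC fell from 22.4 ± 2.48 to 10.01 ± 0.723 CPM. Glycolysis and hypoxia genes were higher in 11 and lower in 6 of 27 cases (median 0.12, and 0.23 without cytarabine replicate 3). PKM, pyruvate kinase, rose from 627 ± 2.29 to 1019.7 ± 18.4 CPM and PGK1, phosphoglycerate kinase 1, by 0.58 ± 0.032, and VEGFA, the angiogenic growth factor, fell from 52.7 ± 2.92 to 33.2 ± 0.756 CPM. Mitochondrially encoded genes changed little, 6 of 13 higher and 2 lower (median 0.09). MT-ND2 rose by 0.19 ± 0.031, MT-CYB by 0.11 ± 0.031 and MT-ND1 by 0.11 ± 0.038, the last with overlapping groups and no call without cytarabine replicate 1, cytarabine replicate 2 or FL-Fc-DM1 replicate 3. MT-CO1 fell (log2 -0.12 ± 0.021), and the lower count was 1 without cytarabine replicate 3 or FL-Fc-DM1 replicate 1. All mitochondrial genes together took 6.62 ± 0.16% of counts with cytarabine and 6.40 ± 0.0636% with FL-Fc-DM1.

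Genes of cytarabine transport and metabolism were higher in 6 of 19 cases and lower in 3 (median -0.05, and 0.02 without FL-Fc-DM1 replicate 2). SAMHD1, which hydrolyzes the active triphosphate of cytarabine, had 468, 458 and 488 CPM with cytarabine and 676, 647 and 679 CPM with FL-Fc-DM1, log2 0.50 ± 0.035. The kinase gene NME1 rose by 0.54 ± 0.0505 and RRM2, a subunit of ribonucleotide reductase, from 68.9 ± 4.06 to 98.1 ± 2.64 CPM, and the nucleotidase gene NT5C2 fell (log2 -0.35 ± 0.035). Among 5 tested ABC transporters known for drug efflux, ABCC4 rose from 60.2 ± 3.55 to 80.4 ± 1.07 CPM and ABCC5 was called lower (log2 -0.16 ± 0.067), a call lost when any 1 of the 6 libraries was left out. Histone genes were higher in 7 and lower in 12 of 51 cases (13.7% and 23.5%), the lower share being near that of all genes. Their median of 0.11 turned to -0.24 when only the 6 libraries were fitted (30 tested, 5 higher, 14 lower), and was 0.06 without cytarabine replicate 2 and 0.24 without cytarabine replicate 1. Most histone mRNAs lack a poly(A) tail, so oligo(dT) capture does not measure their total. H2AC6 fell from 102 ± 1.82 to 59.2 ± 1.19 CPM, H2BC5 (log2 -0.64 ± 0.12) and H2BC21 (log2 -0.77 ± 0.16), and H2BC12 rose by 0.24 ± 0.053. The higher count was 4 without cytarabine replicate 1 or 3 and 2 without FL-Fc-DM1 replicate 2.

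**Figure D4:**
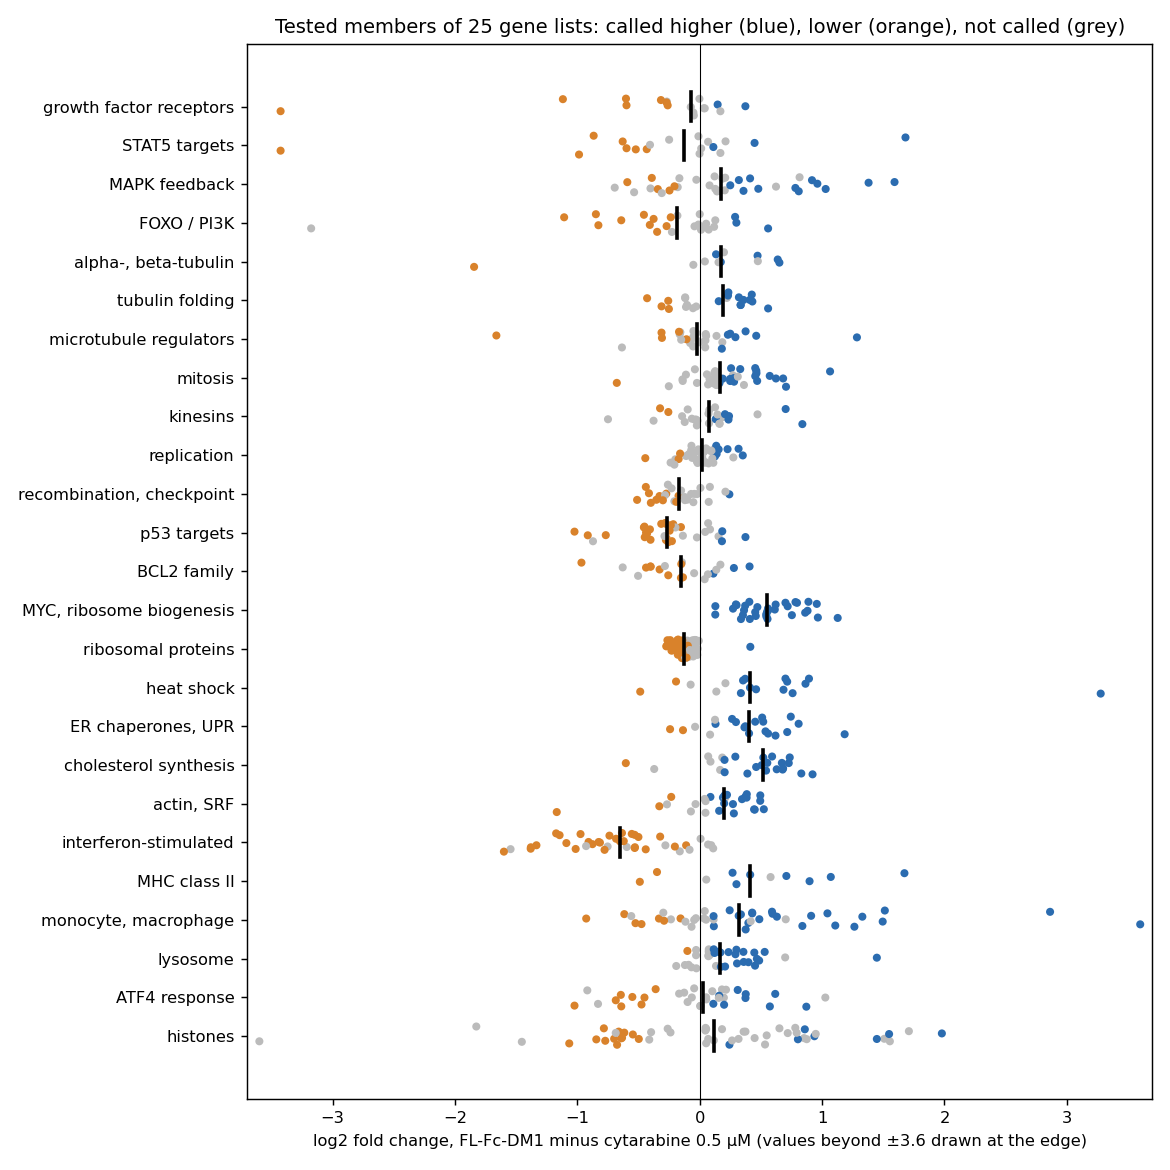
Log2 fold change of each tested member of 25 gene lists (points, called higher in blue, lower in orange, not called in grey) with the list's median (bar), values beyond ±3.6 drawn at the edge. The MYC and ribosome biogenesis list lies wholly above 0, and interferon-stimulated genes and p53 targets lie mostly below it.

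Markers of other cell types were few and did not move together. T and NK cell markers summed to 67.3 to 74.2 CPM with cytarabine and 55.2 to 61.6 CPM with FL-Fc-DM1, most of it NKG7, which myeloid cells can also express, while CD8B, GZMA and TRBC1 had no count. NKG7 fell (log2 -0.17 ± 0.063), CD3D (log2 -1.10 ± 0.32) and PRF1 (log2 -1.82 ± 0.63). None of the T and NK cell calls remained without cytarabine replicate 2, and 1 remained without FL-Fc-DM1 replicate 2 or 3. B cell markers summed to 1.23 to 2.23 and 0.662 to 1.48 CPM, with no call, CD79A at 0.627 ± 0.3002 and 0.459 ± 0.467 CPM and BANK1 at 0.504 ± 0.239 and 0.388 ± 0.127 CPM. Red cell markers were at most 0.154 CPM, and platelet markers 7.6 to 8.5 and 5.46 to 6.86 CPM, where GP1BA fell (log2 -0.53 ± 0.18), a call lost without cytarabine replicate 1 or 2 or FL-Fc-DM1 replicate 1 or 2. Stromal and epithelial markers summed to 256 to 269 and 312 to 314 CPM, carried by PECAM1, which monocytes also express (log2 0.27 ± 0.039), while COL1A2, COL3A1, DCN, EPCAM, KRT19 and CDH5 had no count. The part of other cell types in the results above was not tested.

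Whether the change depends on the pretreatment dose was tested as the change after 0.5 µM minus the change after 1 µM, which share no library. The difference was called in 379 genes (3.07%), positive in 115 (0.931%) and negative in 264 (2.14%), against 5646 genes (45.7%) called between the 1 µM groups alone, 2906 higher (23.5%) and 2740 lower (22.2%). The negative count was 175 without cytarabine 0.5 µM replicate 3, 151 without FL-Fc-DM1 0.5 µM replicate 1 and 159 without its replicate 2, and the positive count was 186 without FL-Fc-DM1 1 µM replicate 3. Mitosis genes were often among the negative ones. Of 41, 26 had a called negative difference and none a positive one, with a median log2 change of 0.16 at 0.5 µM and 0.81 at 1 µM. CDC20 had 11.6 ± 0.616 and 24.3 ± 2.84 CPM at 0.5 µM and 6.69 ± 0.0725 and 32.2 ± 3.13 CPM at 1 µM, a difference of -1.20 ± 0.15 (edgeR adjusted p = 2.89e-05). NEK2, a kinase of centrosome separation, had 6.63 ± 1.08 and 7.84 ± 0.251 CPM at 0.5 µM and 4.62 ± 0.575 and 13.8 ± 0.861 CPM at 1 µM, a difference of -1.33 ± 0.197. CHEK1 was called in opposite directions, at -0.44 ± 0.096 after 0.5 µM and 0.27 ± 0.099 after 1 µM, a difference of -0.71 ± 0.14 (edgeR adjusted p = 0.00267). Kinesins had 6 negative differences of 27, replication genes 7 of 39, and recombination and checkpoint genes 7 of 27, with no positive one in these lists.

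Tubulin followed the same order, with 3 of 11 differences called, all negative. TUBA1B rose by 0.17 ± 0.032 after 0.5 µM and by 0.62 ± 0.032 after 1 µM (difference -0.44 ± 0.045), TUBB by 0.13 ± 0.032 and 0.40 ± 0.032 (difference -0.27 ± 0.045). In MHC class II 4 of 11 differences were negative, HLA-DRA with -0.56 ± 0.057. Among genes with at least 10 CPM the largest positive difference was in GGT5, a gamma-glutamyltransferase, with -1.41 ± 0.14 after 0.5 µM and -2.60 ± 0.19 after 1 µM. VCAN rose more after 0.5 µM, by 1.04 ± 0.035 against 0.48 ± 0.036 (difference 0.56 ± 0.0499). TOX, a nuclear factor of T cell development, fell (log2 -1.16 ± 0.18) after 0.5 µM and had 0.01 ± 0.18 with no call after 1 µM (difference -1.17 ± 0.25). SCG2, secretogranin II, had 0.36 ± 0.097 and -0.59 ± 0.11 (difference 0.95 ± 0.15). FPR3, a formyl peptide receptor, had 1.51 ± 0.25 and 2.81 ± 0.21 (difference -1.30 ± 0.34), and AMER1, a regulator of WNT signaling, had 0.42 ± 0.14 and -0.52 ± 0.14 (difference 0.94 ± 0.202), where the call of the difference was lost for FPR3 and PDXP when any of several single libraries was left out, such as cytarabine 0.5 µM replicate 1. The lists of MYC and ribosome biogenesis, heat shock, the unfolded protein response, cholesterol synthesis and p53 targets had no called difference at an adjusted p of 0.05, with medians of 0.55, 0.41, 0.40, 0.51 and -0.27 after 0.5 µM and of 0.48, 0.40, 0.44, 0.49 and -0.25 after 1 µM. Replicates of the 1 µM groups spread more, with a chi-square per degree of freedom of 3.37 to 4.98 between libraries against 1.86 to 2.25 in the 6 libraries at 0.5 µM.

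**Figure D5:**
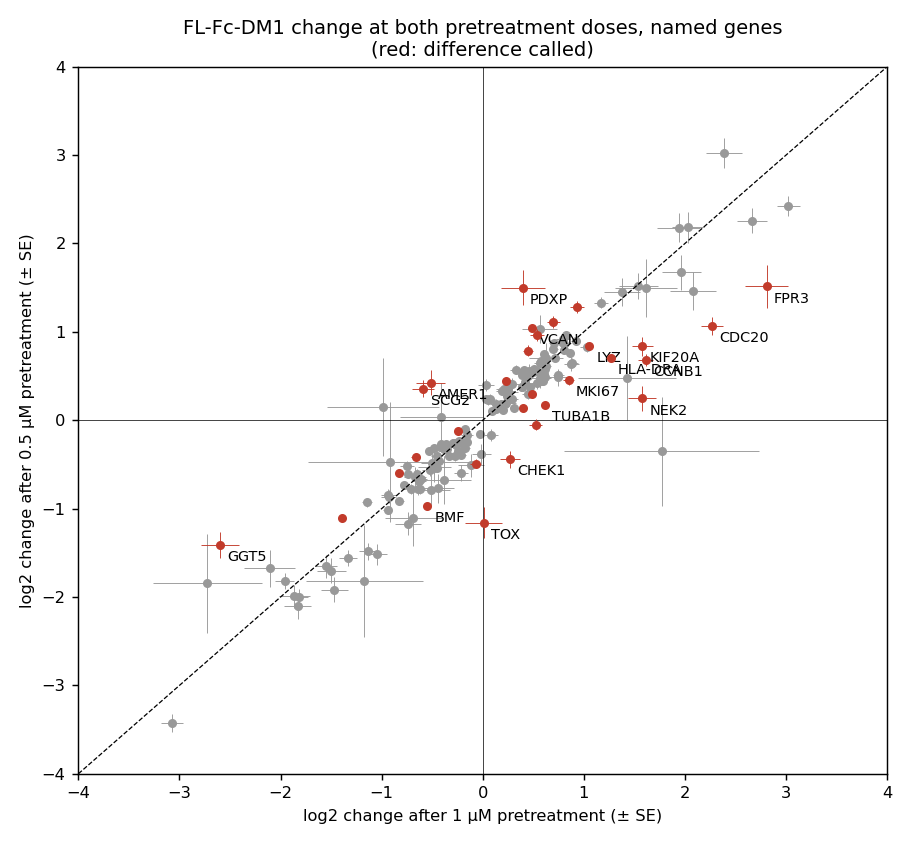
Log2 change after 0.5 µM against that after 1 µM pretreatment (± SE) for the named genes, with the line of equal change dashed and genes whose difference was called in red. Most genes lie near the line, and CDC20, CCNB1, NEK2 and KIF20A lie to the right of it.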

How the data were processed

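Poly(A) RNA of 15 Molm-13 libraries in 5 groups of 3 was sequenced, per the labels' protocols. The authors' deposited table gives an expected count and a TPM value per gene. Per the submitters' processing notes, the tools included HISAT2 and StringTie 1.3.1 with fastp 0.18.0. Genome build, annotation, strand setting and counting step are not stated in the labels, headers or notes. Reads of overlapping genes may be shared. Groups came from sample titles, and the members, gene lists and tests were chosen with earlier results of these data known.

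Expected counts were rounded and tested in R 4.3.3 with edgeR 4.0.16: TMM scaling, a filter of 10 counts (total 15) that left 12355 of 20375 genes, 1 quasi-likelihood fit over all 15 libraries, and Benjamini-Hochberg adjustment over all genes tested, called under 0.05. Totals were 10.86 to 16.97 M. SE is the log2 change divided by the square root of F. TPM was used only to compare levels between genes. Named genes were FLT3, every tested tubulin, the 12 largest called rises and falls at 10 CPM or more without overlap between groups, up to 3 called members of each list in its leading direction with the leading member of the other, and the 4 largest called differences between doses each way. Some genes under this rule are not reported here. Others are named as chosen after their values were seen. In a simulation of this comparison, 89 of 100 genes changed by a log2 of 1, 83 of 99 changed by 0.5 and 6 of 11973 unchanged genes were called. It changed far fewer genes than the 44.7% called in the data and drew independent libraries from the fitted spread. It therefore does not give the error rate of the calls in the data. Alternatives were DESeq2 1.42.0, its size factors, upper-quartile scaling, no filter, a fit of only the groups compared, a replicate block, glmTreat and leaving out each library. Promoters came from the RefSeq table (GRCh38.p14) and were searched on both strands in Python 3.11.15.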

Additional observations from a re-analysis of the deposited data

Results flagged for a closer look

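For 30 named genes the change with FL-Fc-DM1 after 0.5 µM cytarabine differed from that after 1 µM by the test of the difference itself (edgeR quasi-likelihood, adjusted p under 0.05). The values are the log2 change after 0.5 µM minus that after 1 µM, and no explanation was tested. Genes of mitosis, the checkpoint and microtubules had negative differences, namely CDC20 (-1.2), NEK2 (-1.33), CCNB1 (-0.931), KIF20A (-0.74), MKI67 (-0.396), CHEK1 (-0.713), TUBA1A (-0.575), TUBA1B (-0.444) and TUBB (-0.266). Antigen presentation and receptor genes with negative differences were HLA-DRA (-0.556), CD74 (-0.187), CIITA (-0.421) and FPR3 (-1.3), and the others were TOX (-1.17), BMF (-0.417) and LYZ (-0.211). Positive differences were found in GGT5 (1.19), PDXP (1.1), SCG2 (0.945), AMER1 (0.939), VCAN (0.56), FOS (0.425), CXCL8 (0.417) and BEX1 (0.349), and in HMOX1 (0.34), TXNIP (0.282), CYP27A1 (0.248), PIM1 (0.23), LIPA (0.213) and MT-CO1 (0.12). The difference was lost for FPR3 and for PDXP in 8 alternatives each, most of them leaving out a library.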

How the results depend on the processing

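Of 191 results for named genes, 176 kept their direction and call in all alternatives computed for them (11, 13 or 18 each, without glmTreat), 14 lost a call in at least 1, 1 gained one (TUBB6) and none reversed. For FL-Fc-DM1 against cytarabine, the count of genes called was 5444 with DESeq2 and 6415 with only the groups compared, and leaving out a library gave 4766 to 4964. A test against a log2 change of 1 (glmTreat) called 31 genes, 9 higher and 22 lower, with 235 at an unadjusted p under 0.05. For the difference between doses, positive calls numbered 203 without a filter on low counts and 190 with DESeq2, negative calls numbered 154 with only the groups compared, and glmTreat called 0 in all, 0 positive and 0 negative, with 46 at an unadjusted p under 0.05. Leaving out a library gave 254 to 494 calls, 82 to 186 positive and 151 to 308 negative. The cause of these moves was not tested. Scaling shifted the median of all genes by less than 0.1. Correlations of deviations were -0.0098, 0.020 and 0.045 for equal replicate numbers and -0.040 to 0.020 for unequal ones. Such small values cannot show whether libraries of equal number were handled together. With a replicate block 5596 genes were called for the comparison and 438 for the difference between doses. TUBB4A, SPC24 and GP1BA, all of low count, lost their calls when single libraries were left out. Medians of lists close to 0, such as microtubule regulators, ATF4 and myeloid factors, changed sign in at least 1 alternative.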

Other observations

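The pathway and transcription factor annotation deposited with the table gives further gene groups, described here only by counts beside the 22.0% higher and 22.8% lower of all genes tested. Proteasome genes were higher in 31 of 43 cases and lower in 1, and genes of the citrate cycle in 17 and 1 of 27. Oxidative phosphorylation had 75 of 122 genes higher (61.5%) and 8 lower, aminoacyl-tRNA synthesis 25 and 3 of 44, RNA polymerase subunits 21 and 3 of 34, and the spliceosome 63 and 13 of 130. Lower calls led among ABC transporters, 11 of 27 with 2 higher, and in the interaction of cells with extracellular matrix, 15 of 35 with 6 higher. Homeobox genes were lower in 16 of 43 cases and higher in 4. C2H2 zinc finger genes were lower in 135 of 468 cases (28.8%) and higher in 33 (7.05%), with a median log2 change of -0.11.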
